A study of Rattus norvegicus with 22 samples.

Results

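The 7 genes described here encode adrenergic receptors, the G protein-coupled receptors for noradrenaline and adrenaline. They were chosen by gene symbol in the table of raw read counts and made up 7 of the 32883 genes counted, namely Adra1a, Adra1b, Adra1d, Adra2a, Adra2b, Adra2c and Adrb1. Other beta receptors were not analysed here. RNA was sequenced from the ventral part of the cervical spinal cord, segments C3 to C6, of 22 Sprague-Dawley rats aged 3 to 4 months, with 1 library per rat. The rats were 5 intact males, 5 males without testes (GDX), 6 intact virgin females and 6 virgin females without ovaries (OVX). The gonads had been removed under isoflurane after a dose of buprenorphine, and the cords of these rats were collected 2 weeks later. All rats were perfused with cold saline under isoflurane before the cord was taken. The intact rats were age-matched and no sham operation was described for them, so that the loss of the gonads cannot be told apart from the surgery and its drugs. The stage of the estrous cycle was not given in the sources used here.

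Noradrenaline reaches the spinal cord through descending axons of brainstem neurons, and in the ventral horn it raises the excitability of motor neurons. Alpha-1 receptors act through Gq and phospholipase C, alpha-2 receptors through Gi, which inhibits adenylyl cyclase and opens potassium channels, and beta receptors through Gs and cyclic AMP. Alpha-2 receptors also sit on the noradrenergic terminals themselves, where they restrain release.

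Library totals ran from 12371756 to 17571887 counted reads. The study lists the average size of the fragments put into each library, and these sizes fall into a short class of 15 libraries and a long class of 7. Every library of a gonadectomized rat was of the short class, and so were 4 of intact rats, males 2 and 5 and females 1 and 4. The long class held intact males 1, 3 and 6 and intact females 2, 3, 5 and 6, so gonadectomy and library class were largely tied. Levels are given as CPM, a gene's counts relative to the library total after scaling by TMM factors. No gene lengths were used, so levels of different receptors were not compared with each other.

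Markers of cell types and of levels along the cord were examined first. All 6 motor neuron markers passed the filter on low counts, and the most abundant of them, Prph (peripherin), had a mean of 235 CPM over the 22 rats. The summed level of 6 dorsal horn markers was 2.17 ± 0.650 CPM in intact and 2.48 ± 1.39 CPM in GDX males (SD, n = 5 each), and 3.05 ± 1.85 CPM in intact and 4.59 ± 2.70 CPM in OVX females (SD, n = 6 each), with Lbx1 the most abundant. Of the Hox genes of cervical cord, Hoxc6 was the most abundant with a mean of 14.5 CPM, while Hoxa5 was listed at 0 in all 22 libraries. The lumbar markers were near 0, with Hoxc10 at a mean of 0.203 CPM and Hoxa10 at 0 in all 22 libraries. Markers of noradrenergic cell bodies were also near 0. Slc6a2, the noradrenaline transporter, was the most abundant of these with 34 reads in all 22 libraries.

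Adra1a, the alpha-1A receptor, was lower in GDX than in intact males. Its level was 24.2, 26.8, 24.9, 25.7 and 27.4 CPM in intact males 1, 2, 3, 5 and 6, from 330 to 417 reads per library. In GDX males 1, 2, 4, 5 and 6 it was 23.4, 21.2, 19.0, 20.7 and 19.7 CPM, from 282 to 367 reads. All 5 GDX males were below all 5 intact males. The share of all genes without overlap between these groups is not given here. The means were 25.8 ± 1.29 CPM in intact and 20.8 ± 1.68 CPM in GDX males (SD, n = 5 each). The log2 fold change was -0.31 (SE 0.07), a ratio of 0.808 with a 95% interval from 0.732 to 0.891, at an adjusted p of 0.0125 (edgeR's quasi-likelihood test, Benjamini-Hochberg over all genes tested). Genes are called here at an adjusted p under 0.1. In bulk tissue, fewer cells that express a gene and less RNA per cell cannot be told apart.

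In this comparison 1 of the 6 receptors that passed the filter was called, and 13.4% of all 14931 genes tested were called, 1012 of them higher and 983 lower in GDX males. Adra1a stood at rank 377 of 14931 by p.

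**Figure D1:**
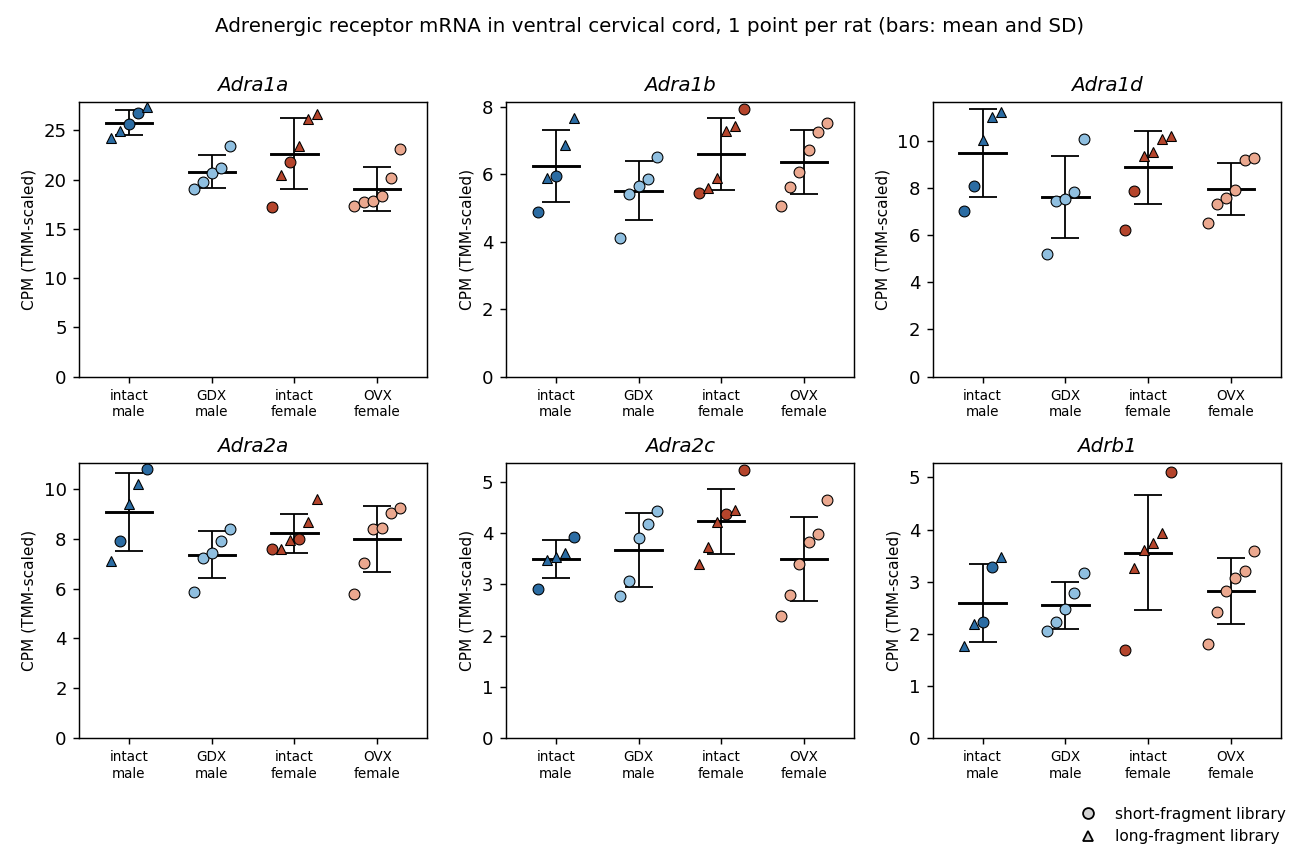
Level of 6 adrenergic receptors in each rat, in TMM-scaled CPM, by group, with circles for short-fragment and triangles for long-fragment libraries. Bars give the mean and SD of 5 or 6 rats. For Adra1a the GDX males, from 19.0 to 23.4 CPM, lie below the intact males, from 24.2 to 27.4 CPM, while the groups of the other 5 receptors overlap.

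The lower Adra1a of GDX males was also seen within the short library class. Intact males 2 and 5, both of that class, had 26.8 and 25.7 CPM, above every GDX male. With library class as a term the log2 fold change was -0.33 (SE 0.09), at an edgeR adjusted p of 0.0724. With short-class libraries alone, and so with 2 intact males, it was -0.33 (SE 0.09) and the call ended, at an edgeR adjusted p of 0.109. Over all the alternatives tried, the adjusted p ran from 0.00231 to 0.915.

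RNA of the meninges moved with this result. All 8 markers of meninges and fibroblasts that were tested were higher in GDX males, with Col1a1, a collagen of fibrous tissue, the most abundant at a mean of 85.7 CPM. Their summed level was 188, 126, 131, 84.6 and 63.2 CPM in intact males 1, 2, 3, 5 and 6, and 169, 284, 412, 543 and 441 CPM in GDX males 1, 2, 4, 5 and 6. GDX male 1, with the lowest sum of its group, had the highest Adra1a of that group, at 23.4 CPM. Its sum lay within the range of the intact males' sums. Intact male 1 had the highest sum of the intact males and the lowest Adra1a among them, at 24.2 CPM. Both its sum and its Adra1a were higher than those of GDX male 1. Intact male 6 had the lowest sum and the highest Adra1a of the intact males, at 27.4 CPM. Intact males 2, 3 and 5 had Adra1a at 26.8, 24.9 and 25.7 CPM. The mean sums differed by a ratio of 3.11 (two-sided exact permutation test, p = 0.0159, adjusted p = 0.0476 over 12 marker lists). With the meningeal level as a term in the model, the log2 fold change of Adra1a was -0.13 (SE 0.11), at an edgeR adjusted p of 0.915, and the genes called went from 1995 to 1. The cause of the Adra1a difference was not tested.

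Other cell types differed between the male groups by smaller ratios. All 6 endothelial markers tested rose in GDX males, led in abundance by Flt1, and their sum was 94.5 ± 13.6 CPM in intact and 145 ± 18.4 CPM in GDX males (SD, n = 5 each), without overlap. Of the mural cell markers 4 of 9 rose and none fell, with Myh11 the most abundant, and their sum was 140 ± 14.9 CPM in intact and 179 ± 14.7 CPM in GDX males, without overlap. Of 8 astrocyte markers 2 rose and 1 fell, with Gfap the most abundant, and their sum was 6046 ± 248 CPM in intact and 7169 ± 351 CPM in GDX males, also without overlap. These 3 sums each gave an adjusted p of 0.0317 over 12 lists in the two-sided exact permutation test. Of 6 oligodendrocyte markers 1 rose, Mbp, which was also the most abundant. Their sum was 23617 ± 1349 CPM in intact and 25659 ± 1194 CPM in GDX males (SD, n = 5 each), which overlapped (two-sided exact permutation test, p = 0.0397, adjusted p = 0.0952 over 12 lists). None of 7 microglial markers, led by Csf1r, was called by edgeR, with 1 at an unadjusted p under 0.05 and 1 called by DESeq2 and 0 by the exact test. Of the 6 motor neuron markers 1 fell, Slc18a3, the vesicular acetylcholine transporter, with a log2 fold change of -0.43 (SE 0.13) and an edgeR adjusted p of 0.0542. The summed motor neuron level was 447 ± 118 CPM in intact and 417 ± 35.2 CPM in GDX males (SD, n = 5 each), which did not pass a two-sided exact permutation test (p = 0.738). The part of these cell types in the Adra1a difference was not tested.

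Adra1a in females gave a smaller difference that was not called. Its level in intact females was 17.3 CPM at the lowest, 22.6 at the median and 26.7 at the highest, and in OVX females 17.3, 18.1 and 23.1. The ranges overlapped in part, with intact females 2, 3 and 5 (26.2, 23.4 and 26.7 CPM) above every OVX female. The means were 22.6 ± 3.58 in intact and 19.1 ± 2.21 CPM in OVX females (SD, n = 6 each), with a log2 fold change of -0.24 (SE 0.10) at an edgeR adjusted p of 0.432. With library class as a term it was -0.02 (SE 0.13, edgeR adjusted p = 0.982, with 0.170 to 0.982 over all alternatives), and the 2 intact females of the short class had 17.3 and 21.8 CPM, against 17.3 to 23.1 CPM in OVX females. The summed motor neuron level was lower in OVX than in intact females, at 405 ± 63.8 against 523 ± 66.6 CPM (SD, n = 6 each; two-sided exact permutation test, p = 0.0152, adjusted p = 0.0909 over 12 lists). The summed endothelial level was higher, at 165 ± 25.7 against 116 ± 29.6 CPM (SD, n = 6 each), with the same exact p and adjusted p, and of its 6 markers 1 was called, Kdr, with a log2 fold change of 0.77 (SE 0.13, edgeR adjusted p = 0.0966). The part of these cell types in the Adra1a value was not tested.

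**Figure D2:**
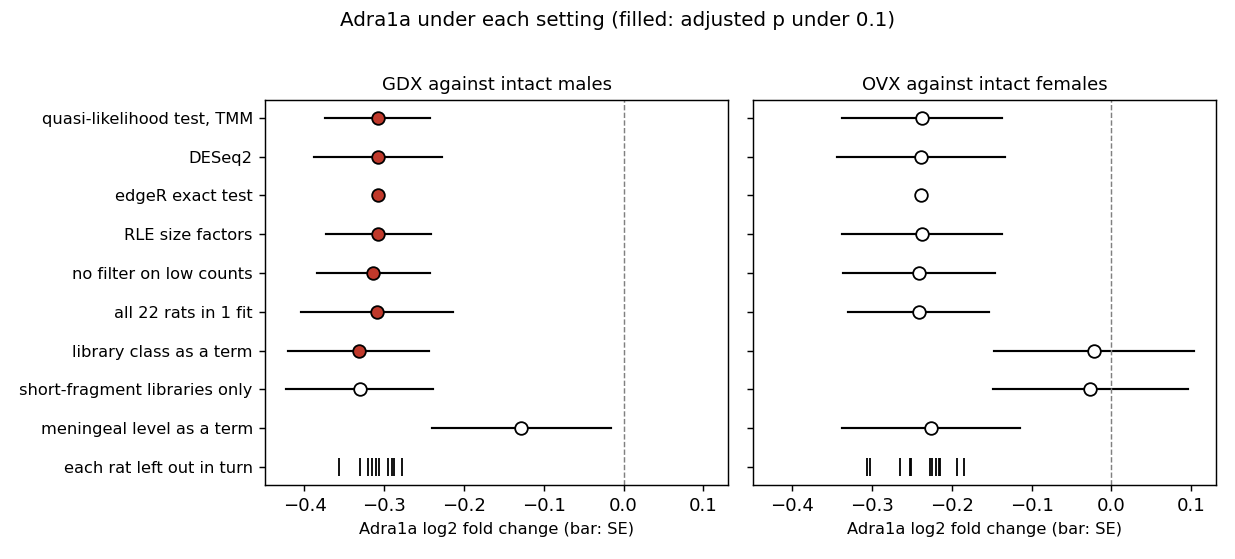
Log2 fold change of Adra1a after gonadectomy in males and in females under 9 settings of the model, with bars of 1 SE (the exact test gives none) and ticks for the values with each rat left out in turn. Filled points have an adjusted p under 0.1. The male value stays between -0.36 and -0.28 in all settings but the one with the meningeal level as a term, at -0.13, and the female value goes from -0.24 to -0.02 with library class as a term.

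By mean level of Adra1a the groups stood in the order intact males, intact females, GDX males and OVX females. Neighbours in this order were not told apart where they were tested. Intact males and intact females differed by a log2 fold change of 0.19 (SE 0.09, edgeR adjusted p = 0.336), or of 0.43 (SE 0.13, edgeR adjusted p = 0.310) with short-class libraries only, 2 of each sex, where all alternatives gave an adjusted p from 0.224 to 0.894, and GDX males and OVX females by 0.13 (SE 0.08, edgeR adjusted p = 0.681). The responses of males and females to gonadectomy differed by -0.07 on the log2 scale (SE 0.13, edgeR adjusted p = 0.891), with a 95% interval from -0.34 to 0.20. With short-class libraries only, and so with 2 intact rats of each sex, this value was -0.31 (SE 0.16, edgeR adjusted p = 0.530), and with the meningeal level as a term 0.02 (SE 0.15), with an adjusted p from 0.530 to 0.999 over all alternatives. The call in males and its absence in females thus does not show a difference between the sexes.

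Adra1d, the alpha-1D receptor, did not overlap between the library classes of intact rats. Intact rats of the long class had between 9.38 and 11.3 CPM and those of the short class between 6.24 and 8.10 CPM, so all 7 long-class libraries lay above all 4 short-class ones, in both sexes. How many of all genes separate the classes in this way is not given here. The log2 difference, with sex as a term, was 0.49 (SE 0.09), with rank 4 of 15401 genes by p and an edgeR adjusted p of 0.233. It was called by DESeq2 (adjusted p = 0.0320) and with no filter on low counts (edgeR adjusted p = 0.0153), and over all alternatives the adjusted p ran from 0.0153 to 0.465. By edgeR 0 of 6 receptors and 0.00649% of genes were called between the classes. At an unadjusted p under 0.05 was 1 receptor, Adra1d, against 7.69% of all genes. The differences of the other 5 receptors between classes ran from -0.13 to 0.14 on the log2 scale. Cell-type markers also moved with library class. All 6 motor neuron markers were at higher levels in the long class, with a median log2 difference of 0.40, and Lbx1 of the dorsal horn was at -0.89 (SE 0.27, edgeR adjusted p = 0.411). By edgeR 0 motor neuron markers were called, 6 were at an unadjusted p under 0.05, against 7.69% of all genes, and DESeq2 called 2. The 4 cervical Hox genes tested ran from -0.35 to 0.37, the latter for Hoxc6. Of these 2 were at an unadjusted p under 0.05 and 0 were called by edgeR. The summed motor neuron level of intact rats overlapped between the classes. It ran from 342 to 510 CPM in the short class and from 406 to 636 CPM in the long class. The part of motor neurons in the Adra1d difference was not tested.

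In intact males 1, 2, 3, 5 and 6 Adra1d was at 10.1, 7.03, 11.3, 8.10 and 11 CPM, and in GDX males 1, 2, 4, 5 and 6 at 10.1, 7.85, 5.19, 7.45 and 7.56 CPM. The log2 fold change was -0.31 (SE 0.16), about that of Adra1a, but the rats of each group were spread more widely and it was not called (edgeR adjusted p = 0.268). With library class as a term it was 0.01 (SE 0.19). In females the lowest, median and highest values were 6.24, 9.46 and 10.2 in intact and 6.50, 7.75 and 9.29 CPM in OVX rats. The log2 fold change was -0.15 (SE 0.13, edgeR adjusted p = 0.756), and 0.19 (SE 0.15) with library class as a term.

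Adra1b, the alpha-1B receptor, ranged from 4.11 to 7.95 CPM over all 22 rats, from 58 to 130 reads. It was at 6.87, 4.88, 5.89, 5.93 and 7.68 CPM in intact males 1, 2, 3, 5 and 6, at 5.64, 5.42, 5.87, 4.11 and 6.52 in GDX males 1, 2, 4, 5 and 6, and had medians of 6.58 in intact and 6.38 in OVX females. The groups overlapped widely. Its group means were 6.25 ± 1.06 in intact and 5.51 ± 0.883 CPM in GDX males (SD, n = 5 each), and 6.59 ± 1.07 in intact and 6.37 ± 0.954 CPM in OVX females (SD, n = 6 each). The log2 fold changes were -0.18 (SE 0.15) in males and -0.04 (SE 0.13) in females, neither called, and their 95% intervals ran from -0.51 to 0.14 and from -0.31 to 0.24. The male value turned to 0.02 with library class as a term, 0.03 with short-class libraries only and 0.10 with the meningeal level as a term, so it had no settled direction.

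The alpha-2 receptors couple to Gi. Adra2a, the alpha-2A receptor, was at 9.42, 10.8, 7.10, 7.91 and 10.2 CPM in intact males 1, 2, 3, 5 and 6, and at 7.23, 7.44, 5.87, 7.94 and 8.41 CPM in GDX males 1, 2, 4, 5 and 6. Intact males 3 and 5 lay among the GDX males. The log2 fold change was -0.30 (SE 0.13) and was not called, at an edgeR adjusted p of 0.183, but without intact male 3 it was -0.38 (SE 0.13) and called, at an edgeR adjusted p of 0.0919. Over all alternatives the adjusted p ran from 0.0919 to 0.900. In females the lowest, median and highest values were 7.59, 7.98 and 9.61 in intact and 5.77, 8.44 and 9.25 CPM in OVX rats. The means were 8.24 ± 0.780 in intact and 8.0 ± 1.34 CPM in OVX rats (SD, n = 6 each), a log2 fold change of -0.03 (SE 0.11). The male and female values differed by -0.26 (SE 0.18, edgeR adjusted p = 0.595).

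Adra2c, the alpha-2C receptor, ranged from 2.39 to 5.23 CPM, from 32 to 93 reads per library. It was at 3.61, 3.92, 3.47, 2.91 and 3.54 CPM in intact males 1, 2, 3, 5 and 6 and at 4.18, 4.44, 2.77, 3.90 and 3.06 in GDX males 1, 2, 4, 5 and 6. In males the means were 3.49 ± 0.370 in intact and 3.67 ± 0.724 CPM in GDX rats (SD, n = 5 each), with a log2 fold change of 0.08 (SE 0.17). The male groups were thus nearly level. In females the lowest, median and highest values were 3.40, 4.3 and 5.23 in intact and 2.39, 3.61 and 4.65 CPM in OVX rats. The means were 4.24 ± 0.633 in intact and 3.51 ± 0.825 CPM in OVX rats (SD, n = 6 each), with a log2 fold change of -0.27 (SE 0.17, edgeR adjusted p = 0.618). The values of the sexes differed by 0.35 (SE 0.23), which was not called either (edgeR adjusted p = 0.588).

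Adra2b, the alpha-2B receptor, was counted so rarely that the filter removed it from every comparison. It had 63 reads in all 22 libraries. Intact males 1, 2, 3, 5 and 6 had 1, 1, 1, 0 and 1 reads and GDX males 1, 2, 4, 5 and 6 had 1, 3, 5, 7 and 5, a total of 4 against 21. Intact females had between 1 and 4 reads, 17 in all, and OVX females between 1 and 7, 21 in all. Thus the intact males were low against the other 3 groups, and 4 of 5 GDX males lay above all of them. With no filter on low counts the log2 fold change in males was 2.15 (SE 0.74), at an edgeR adjusted p of 0.111, and in females 0.32 (SE 0.57, edgeR adjusted p = 0.887). Intact males against intact females gave -1.64 (SE 0.71, edgeR adjusted p = 0.361). At a few reads per library no difference was established. The summed meningeal level was lowest in the same group, at 119 ± 48.3 CPM in intact males (SD, n = 5) and 293 ± 129 CPM in intact females (SD, n = 6), and its part was not tested.

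**Figure D3:**
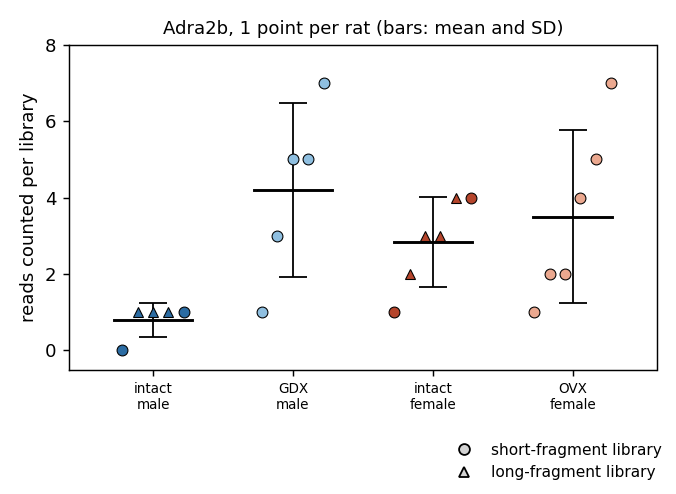
Reads counted for Adra2b in each library by group, with circles for short-fragment and triangles for long-fragment libraries, and bars of the mean and SD. Intact males have 0 or 1 reads, and the other groups from 1 to 7.

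Adrb1, the beta-1 receptor, couples to Gs. It ranged from 1.69 to 5.10 CPM, and from 24 to 70 reads per library. Both ends of the range in CPM were intact females of the short library class, numbers 1 and 4. Intact males 1, 2, 3, 5 and 6 had 3.47, 2.22, 2.19, 3.28 and 1.77 CPM and GDX males 1, 2, 4, 5 and 6 had 2.79, 3.17, 2.23, 2.06 and 2.48. In males the means were 2.59 ± 0.744 in intact and 2.54 ± 0.447 CPM in GDX rats (SD, n = 5 each), with a log2 fold change of -0.02 (SE 0.22) and a 95% interval from -0.49 to 0.45. In females the medians were 3.67 in intact and 2.95 in OVX rats, and the means were 3.56 ± 1.11 in intact and 2.82 ± 0.635 CPM in OVX rats (SD, n = 6 each), with a log2 fold change of -0.32 (SE 0.22, edgeR adjusted p = 0.672). Intact males against intact females gave a log2 fold change of -0.44 (SE 0.25), which was not called (edgeR adjusted p = 0.432) and turned to 0.05 (SE 0.39) with the meningeal level as a term.

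Receptors called were few in the remaining comparisons, as were genes in general in most of them. Between OVX and intact females edgeR called 0 of 6 receptors and 0.0335% of genes. At an unadjusted p under 0.05 there was 1 receptor, Adra1a, against 10.2% of all genes, and DESeq2 and the exact test called 0 receptors. All 6 log2 fold changes in females were below 0, with a median of -0.19 against 0.00 over all genes tested. With library class as a term Adra1d (0.19) and Adra2a (0.04) were above 0, Adra1a was at -0.02 and Adra2c at -0.46, so the shared direction did not hold under that setting. Library class and ovariectomy were largely tied, with 2 intact females of the short class, so their parts cannot be told apart. In the interaction of sex and gonadectomy 0 receptors and 0.116% of genes were called, 0 receptors were at an unadjusted p under 0.05, and DESeq2 called 0. Between intact males and intact females 0 receptors and 4.01% of genes were called, with 0 at an unadjusted p under 0.05 and 0 by DESeq2 and the exact test. Between GDX males and OVX females, all of the short library class, these were 0 receptors and 0.232% of genes, with 0 at an unadjusted p under 0.05 and 0 by the other 2 tools. The intervals show what could have been missed. For Adra1a in females the 95% interval was from -0.45 to -0.03, and for Adrb1 from -0.80 to 0.15.

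**Figure D4:**
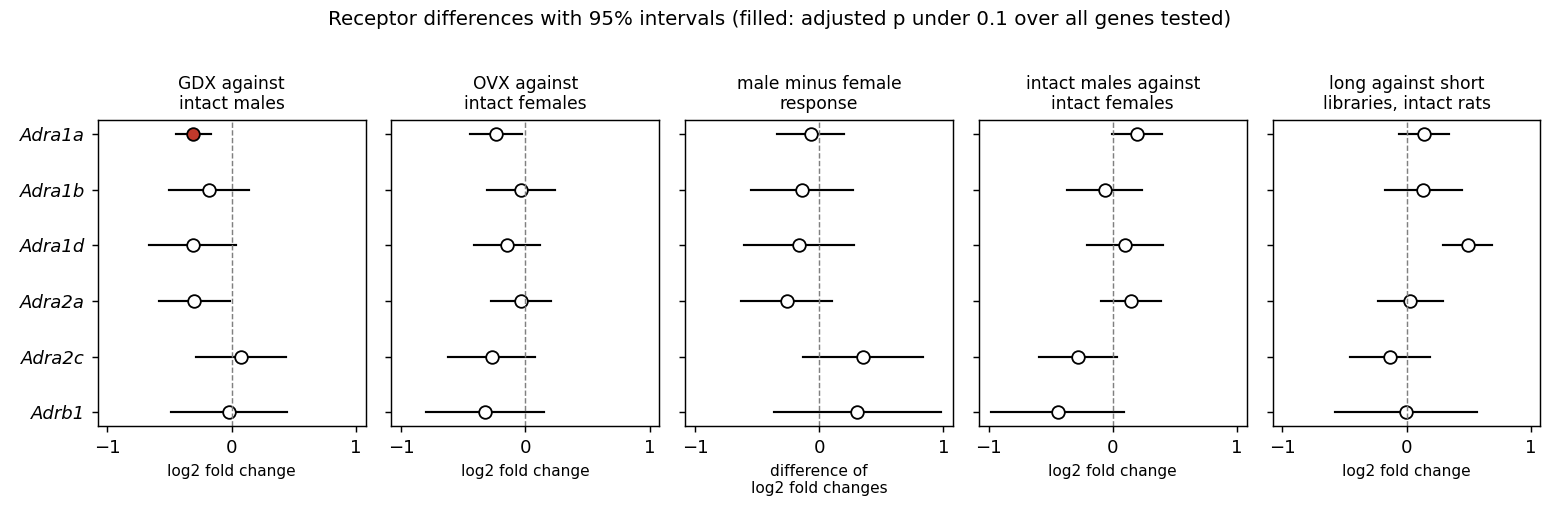
Log2 fold change with its 95% interval for 6 receptors in 5 comparisons, where the middle panel gives the difference between the male and the female response. A filled point has an adjusted p under 0.1 over all genes tested. Only Adra1a in GDX against intact males is filled, at -0.31, and Adra1d between library classes lies farthest to the right of the last panel, at 0.49.

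Around the group means, the receptors varied in part together. In log2 CPM centred within each group, over 22 rats, Pearson's r among the 15 pairs of 6 receptors ran from -0.19 for Adra1b and Adra2c to 0.58 for Adra1a and Adra1d (Spearman's rho 0.51). Adra1a and Adrb1 had an r of 0.48, and Adra1a and Adra2a of 0.42. The intact groups mix both library classes, which these r include, so they describe these libraries only.

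The genes most like Adra1a by the same measure, among 15561 genes, were Tlcd3b (r = 0.88, rho = 0.71), Slc45a4 (r = 0.87, rho = 0.86) and Atp1b2, a subunit of the sodium pump (r = 0.85, rho = 0.77). Without the 2 rats farthest from the median of Adra1a these r were 0.75, 0.80 and 0.76. For the other receptors the second r is the one without the 2 rats farthest from that receptor's median. Most like Adra1d were Map1lc3b, a protein of autophagosomes (r = 0.88 and 0.83), Klc1, a kinesin light chain (0.85 and 0.75), and Tbc1d9b (0.84 and 0.77). For Adra1b they were Clgn (r = 0.81 and 0.75), Slco5a1 (0.79 and 0.70) and AABR07014304.1 (0.79 and 0.69). Il4i1 (r = 0.76 and 0.77), Ccdc6 (0.76 and 0.70) and 7SK (0.74 and 0.53) were most like Adra2a. Med16, a subunit of the Mediator complex (r = 0.82 and 0.84), Dgat2 (0.73 and 0.59) and Kcnc4, a potassium channel (0.73 and 0.66), were most like Adra2c. For Adrb1 these were Crat, carnitine acetyltransferase (r = 0.79 and 0.71), Gas6 (0.74 and 0.47) and Fanca (0.72 and 0.68). The r of 7SK and Gas6 thus rested most on 2 rats.

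Promoter sequences from RefSeq, on the GRCr8 build, matched 6 of the 7 receptors, and Adra1a had no entry. The 250 bases before the start were searched on both strands for 7 short motifs, and the share of all 33469 promoters with a match is given for each. The GC box, bound by Sp1 and related factors, reads GGGCGG and was in 30.5% of them. The CCAAT box takes its name from its letters and was in 34% of them. The TATA box was searched as TATAAA and was in 12.9%. The cyclic AMP response element, the site of Creb1, reads TGACGTCA and was in 1.59%, and its shorter core of TGACG in 18.2%. The core site of the androgen and glucocorticoid receptors was searched as AGAACA and was in 17.5%, and that of the estrogen receptors as AGGTCA and was in 14.1%. Neither core site of the steroid receptors, nor the TATA box, was in the windows of the 6 receptors, and Adra1b, Adra1d and Adra2a held none of the motifs. The 3 windows with a match are shown 5′ to 3′ on the strand of the gene, with the matches in capitals. They are those of Adra2b (chr3:135038231-135038480, plus strand) and Adra2c (chr14:79697477-79697726, minus strand), each with 2 GC boxes, and Adrb1 (chr1:265776853-265777102, plus strand), with a CCAAT box on the other strand and the core of the cyclic AMP element on its own. A match is a stretch of letters and shows no binding.
Adra2b: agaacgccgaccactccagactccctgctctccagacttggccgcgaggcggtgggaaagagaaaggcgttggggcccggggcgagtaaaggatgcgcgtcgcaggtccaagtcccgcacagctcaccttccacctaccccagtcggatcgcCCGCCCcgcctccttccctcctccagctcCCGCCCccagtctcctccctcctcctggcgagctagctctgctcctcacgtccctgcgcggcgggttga
Adra2c: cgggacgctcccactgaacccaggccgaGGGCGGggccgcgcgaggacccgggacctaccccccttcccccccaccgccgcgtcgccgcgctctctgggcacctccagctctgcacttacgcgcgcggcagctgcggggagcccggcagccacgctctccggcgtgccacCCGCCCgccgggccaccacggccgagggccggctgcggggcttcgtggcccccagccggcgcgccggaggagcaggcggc
Adrb1: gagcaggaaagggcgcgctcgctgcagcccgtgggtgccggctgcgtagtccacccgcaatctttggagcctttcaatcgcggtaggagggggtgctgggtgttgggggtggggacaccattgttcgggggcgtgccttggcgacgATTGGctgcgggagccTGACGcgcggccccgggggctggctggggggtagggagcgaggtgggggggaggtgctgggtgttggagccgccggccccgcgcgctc

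Genes that make, move and degrade noradrenaline formed a list of 11, of which 5 passed the filter in males. Of these 4 rose in GDX males and 0 fell, against 13.4% of all genes called. Among them were Maoa and Maob, the monoamine oxidases, and Ddc, which makes dopamine, the precursor of noradrenaline. Maoa rose from 55.1 to 65.9 CPM, a log2 fold change of 0.26 (SE 0.06, edgeR adjusted p = 0.0191), and Maob by 0.27 (SE 0.08, edgeR adjusted p = 0.0421). For Ddc the log2 fold change was 0.52 (SE 0.16, edgeR adjusted p = 0.0494). The median of the 5 genes was 0.26, against 0.00 over all genes tested. These are enzymes that the cord's own cells also express, and their level does not measure noradrenaline.

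In OVX females 0 of these 5 genes was called by edgeR, 4 were at an unadjusted p under 0.05, against 10.2% of all genes, and DESeq2 and the exact test called 0. Maoa had a log2 fold change of 0.11 (SE 0.06). The male and female values differed by 0.15 (SE 0.08) for Maoa, 0.12 (SE 0.11) for Maob and 0.17 (SE 0.20) for Ddc, so none of these was called by edgeR as a difference between the sexes.

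On the Gq side, used by the alpha-1 receptors, 1 of 9 genes was called in GDX males, against 13.4% of all genes. Plcb1, a phospholipase C, fell by 0.25 on the log2 scale (SE 0.05, edgeR adjusted p = 0.00731), from 116 to 97.4 CPM. Itpr2, an IP3 receptor and the most abundant of the list, had a log2 fold change of 0.11 (SE 0.05, edgeR adjusted p = 0.168). Plcb1 in OVX females was at -0.16 (SE 0.04, edgeR adjusted p = 0.171), and the sexes differed by -0.08 (SE 0.06, edgeR adjusted p = 0.609).

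The Gi list, used by the alpha-2 receptors, had 2 of 9 genes higher and 1 lower in GDX males, against 13.4% of all genes called in either direction. Gnai2 and Gnai3, alpha subunits of Gi, rose by 0.27 (SE 0.05, edgeR adjusted p = 0.00772) and 0.28 (SE 0.06, edgeR adjusted p = 0.00951) on the log2 scale. Kcnj6, a potassium channel opened by G proteins, fell by 0.37 (SE 0.12, edgeR adjusted p = 0.0774). Gnai1, next to Gnai2 the most abundant, had a log2 fold change of -0.02 (SE 0.05). The male and female values differed by 0.12 (SE 0.06) for Gnai2, 0.10 (SE 0.08) for Gnai3 and -0.43 (SE 0.19) for Kcnj6, none of them called. Gnai2 was lower in intact males than in intact females by a log2 fold change of -0.14 (SE 0.04, edgeR adjusted p = 0.0785), while the exact test called 0 genes of this list. The summed meningeal level was also lower in intact males, by a ratio of 0.405 (two-sided exact permutation test, adjusted p = 0.0952 over 12 lists), and with it as a term the genes called between intact males and females went from 599 to 21.

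On the Gs side, used by the beta receptors, 4 of 18 genes were lower and 1 was higher in GDX males, where 13.4% of all genes were called. Adcy3, an adenylyl cyclase, fell by 0.34 (SE 0.08, edgeR adjusted p = 0.0194), Gnal, a stimulatory alpha subunit, by 0.27 (SE 0.07, edgeR adjusted p = 0.0195), and Prkar1b, a regulatory subunit of protein kinase A, by 0.20 (SE 0.05, edgeR adjusted p = 0.0252). The fourth was Prkaca, a catalytic subunit of that kinase, named here after its value was seen. Creb1, a transcription factor that protein kinase A activates, rose by 0.30 (SE 0.07, edgeR adjusted p = 0.0185). Gnas and Prkar1a, the most abundant of the list, had log2 fold changes of -0.17 (SE 0.06, edgeR adjusted p = 0.111) and 0.01 (SE 0.04). The male and female values differed by -0.29 for Adcy3 (SE 0.11) and for Gnal (SE 0.09), by -0.10 for Prkar1b (SE 0.06) and by 0.25 for Creb1 (SE 0.09), none of them called. The median of the 18 genes in males was -0.10.

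Among 9 genes that regulate the receptors or their signalling, 2 fell in GDX males, beside the 13.4% of all genes called. They were Arrb1, a beta-arrestin, by 0.19 (SE 0.05, edgeR adjusted p = 0.0187) on the log2 scale, and Grk2, a receptor kinase, by 0.16 (SE 0.06, edgeR adjusted p = 0.0925). The sexes differed by -0.14 (SE 0.06) and -0.17 (SE 0.08) in these, and neither was called. Ppp1r9b, the most abundant, had a log2 fold change of -0.02 (SE 0.05) in males after GDX and was lower in intact males than in intact females, by -0.13 (SE 0.04, edgeR adjusted p = 0.0957), beside the same meningeal difference. The exact test called 0 genes of this list between intact males and females.

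In OVX females 0 genes of the Gq, Gi, Gs and regulator lists were called by edgeR. At an unadjusted p under 0.05 there were 2 genes in each of these 4 lists, of 9, 9, 18 and 9, against 10.2% of all genes, DESeq2 called 1 gene in each of the Gq and Gi lists and 0 in the others, and the exact test called 0. In the interaction edgeR called 0 genes of the 5 lists. There were 1, 0, 1, 3 and 3 genes at an unadjusted p under 0.05 for noradrenaline handling, Gq, Gi, Gs and regulators, against 11.6% of all genes, and DESeq2 called 1 gene for noradrenaline handling and 0 in the other lists. Between GDX males and OVX females edgeR, DESeq2 and the exact test called 0 genes of the 5 lists, with 0, 2, 2, 4 and 2 at an unadjusted p under 0.05 in the same order, against 9.37% of all genes. All of the calls in males stand beside the meningeal difference given for Adra1a, and with that level as a term 1 gene of all those tested in males was called.

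**Figure D5:**
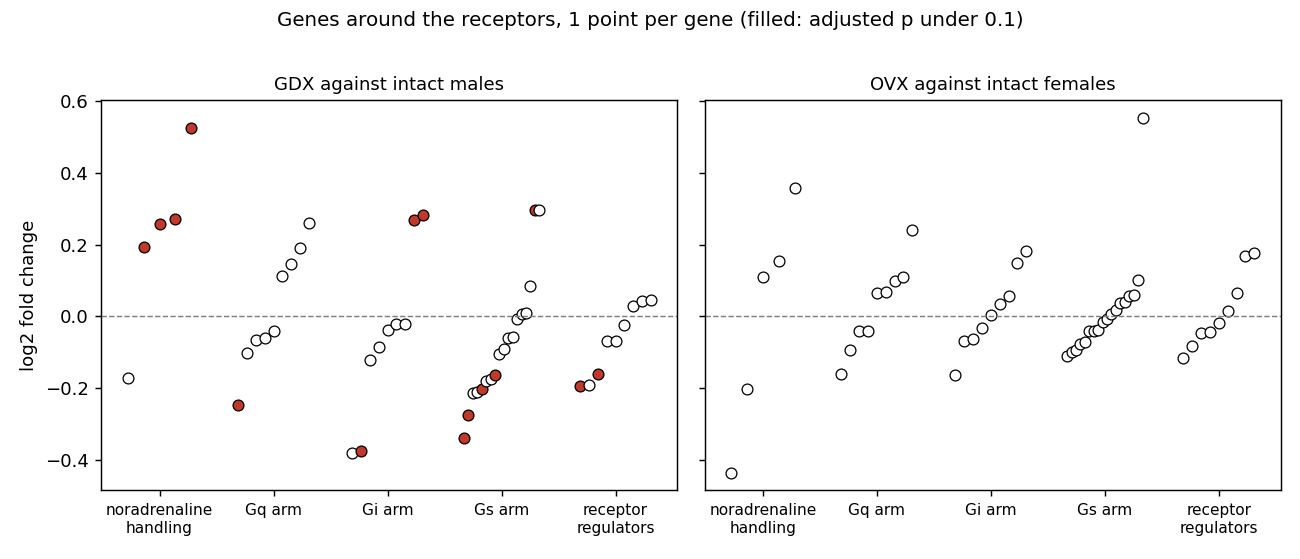
Log2 fold change after gonadectomy of each gene tested in 5 lists around the receptors, in males and in females, 1 point per gene. Filled points have an adjusted p under 0.1 over all genes tested. In males 4 of 5 genes of noradrenaline handling are filled above 0 and 4 of 18 genes of the Gs list below 0, and in females none is filled.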

How the data were processed

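RNA of the ventral cervical cord of 22 rats was sequenced, 1 library per rat, and the authors deposited raw read counts per gene, which all values here come from. The paper names Trimmomatic, Hisat2 and featureCounts, while the submitters' processing notes name TopHat2 2.0.13. The library kit is also given in 2 ways. Strand settings were not given in the sources used here. With R 4.3.3, counts were filtered by filterByExpr, scaled by TMM and tested with edgeR 4.0.16 (quasi-likelihood F test), with p adjusted by Benjamini-Hochberg over all genes tested and called under 0.1. Log2 CPM used a prior count of 2. Each of 6 comparisons was fitted on its own rats. Marker sums were compared by exact permutation tests, adjusted over the 12 marker lists of a comparison. The alternatives were DESeq2 1.42.0, edgeR's exact test, RLE size factors, no filter, plain totals, library class as a term, short-fragment libraries only, all 22 rats in 1 fit, rat number as a block, meningeal level as a term, and each rat left out in turn. Scripts were tested on simulated data. Named were the 7 receptors, and of each list up to 4 called genes with the smallest adjusted p, its 2 most abundant genes and any gene at 0. Of each marker list the most abundant gene and any at 0 were named, and for each receptor above 1 CPM the 3 genes with the highest r. For 2 genes that this rule selects, values are not reported here. Members and lists were chosen with earlier results of these data known.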

Additional observations from a re-analysis of the deposited data

Results flagged for a closer look

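In 96 groups of rats searched, 3 values lay far from the rest of their group, and chance flags about 1 in 20 groups. Intact male 5 had 0 CPM of Adra2b, where the other intact males had 0.0656 to 0.0755 CPM, a difference of 1 read. OVX female 5 had a summed level of 1811 CPM for the Gs list, above the 1629 to 1696 CPM of the other OVX females. OVX female 4 had a summed level of 22223 CPM for the oligodendrocyte markers, below the 24313 to 25466 CPM of the others. No cause was tested for any of these.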

How the results depend on the processing

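Of the receptor log2 fold changes under other settings, apart from rats left out, 245 kept their direction and side of the threshold, 15 reversed, 2 became called and 2 lost their call. With rats left out in turn these were 437, 24, 1 and none lost. Plain library totals moved none of 28 levels by more than 1 SD. Every reversed value was uncalled. The cause was not tested in any case, except that short-fragment libraries alone leave fewer rats.

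For GDX against intact males, 1995 genes were called, 796 with library class as a term, 440 with short-fragment libraries only, 1 with the meningeal level as a term, and 1202 to 2446 with rats left out. The 1 receptor called became 0 with short-fragment libraries only and 0 with the meningeal term, and 1 to 2 with rats left out. For OVX against intact females the 5 genes became 174 by DESeq2, 95 by the exact test, 11 with no filter, 3 with library class as a term, 9 in the fit of 22 rats and 0 to 113 with rats left out. The 18 genes of the interaction became 243 by DESeq2, 33 with no filter, 6 with library class, 5 with short-fragment libraries only, 1 with the meningeal term and 1 to 275 with rats left out. For intact males against intact females 599 became 34 with short-fragment libraries only, 21 with the meningeal term and 352 to 777 with rats left out. For GDX males against OVX females 35 became 130 by DESeq2, 88 by the exact test, 61 in the fit of 22 rats, 257 with the meningeal term and 23 to 44 with rats left out. Between library classes 1 gene became 57 by DESeq2, 210 with no filter and 0 to 1 with rats left out, and 0 receptors became 1 by DESeq2 and 1 with no filter.

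Reversed in males after GDX were Adra1b (0.0247 with library class, 0.0264 with short-fragment libraries only, 0.10 with the meningeal term), Adra1d (0.00959 and 0.0110 with the first 2) and Adrb1 (0.10 with the meningeal term). In females after OVX they were Adra1d (0.19 with library class, 0.18 with short-fragment libraries only) and Adra2a (0.0433 and 0.0393). In the interaction they were Adra1b (0.0861 with short-fragment libraries only) and Adra1a (0.0219 with the meningeal term), and between intact males and females Adra1b (0.0746) and Adrb1 (0.0511), both with the meningeal term. With rats left out, the ranges that crossed 0 were, after GDX, Adra2c -0.00398 to 0.16 and Adrb1 -0.13 to 0.10, after OVX, Adra2a -0.0803 to 0.0404 and Adra1b -0.0900 to 0.0201, in the interaction, Adra1a -0.12 to 0.00262, between intact males and females, Adra1b -0.15 to 0.00831, between GDX and OVX rats, Adra2c -0.0101 to 0.17 and Adra1d -0.18 to 0.0439, and between library classes, Adrb1 -0.31 to 0.31 and Adra2a -0.0299 to 0.14.

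Rat numbers were shared between groups, but same-numbered rats did not deviate together, with r from -0.11 to 0.06 over 20 pairs and 0 above 0.1. With rat number as a replicate block the genes called were 1274 for GDX against intact males, 255 for intact males against intact females, 0 for OVX against intact females and 0 for the interaction, and Adra2c between GDX and OVX rats reversed, at -0.0165. The call of Adra1a remained, at -0.29.

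Adra2b, at 0 to 7 reads per library, was tested only with no filter and was not called. Gonadectomy was largely tied to library class, surgery was not separated from loss of the gonads, and bulk RNA does not show in which cells a receptor was expressed.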
